A study of Mus musculus with 4 samples.

Results

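Schwann cells are the glia of peripheral nerves. They arise from the neural crest through Schwann cell precursors, which travel along growing nerves, depend on neuregulin signals from the axon through the receptors ErbB2 and ErbB3, and also give rise to part of the sympathoadrenal lineage. The transcription factor Sox10 is kept through the whole glial lineage, Foxd3 marks its early stages, and the myelin genes come on late. In neuroblastoma, which arises from sympathetic neuron precursors, Schwann cells form part of the stroma of the more differentiated tumours.

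The genes described here are 8 markers of Schwann cells and their precursors: the transcription factors Sox10 and Foxd3, the neuregulin receptor chain Erbb3, the precursor cadherin Cdh19, the fatty acid carrier Fabp7, the calcium-binding protein S100b, and the myelin genes Mbp and Pmp22. They were chosen by name, as the probe sets that the platform annotation assigns to exactly 1 gene of this list. All 8 were found, each with 1 probe set, among 22180 named genes. They were measured in 4 primary mouse tumours, 1 array each. All 4 tumours carry the same labels: a mutant Alk, the TH-MYCN transgene and Stat6-/-, on a C57BL\6 x 129Sv/J background. TH-MYCN mice express MYCN from the tyrosine hydroxylase promoter, so the transgene acts in catecholamine-producing cells. There is thus 1 group, without a Stat6-intact or tumour-free reference among the arrays, and the values below describe levels and their spread between tumours, with no test between conditions. The tumour number carries no order. The tissue label is a neck muscle, and 0 of 10 skeletal muscle genes lay above the background floor defined next, while 14 of 14 measured sympathoadrenal genes did.

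A gene was called above background when its 4-tumour mean exceeded a log2 value of 6.17, the 95th percentile of the means of 1394 receptor genes of the nose (olfactory and vomeronasal), taken here as background. A gene under this strict floor may still be expressed. Genes above the floor ran slightly high in tumours 1 and 2, with median deviations from their own means of 0.12, 0.04, -0.09 and -0.08 log2 units in tumours 1 to 4. Receptor genes ran the other way, with medians of 3.85, 3.95, 4.10 and 4.10. Tumour 4 also stood apart by Xist, which coats the silenced X chromosome, at 10.13 against 3.89 to 3.95 in tumours 1 to 3, and by the Y-linked Uty, at 3.89 against 7.24 to 7.58, so a difference of tumour 4 cannot be told apart from one of sex. In whole tumours, fewer cells of a type and less RNA per cell cannot be told apart either.

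Fabp7 and Pmp22 are the members on which the results turn. The bases just before their transcription starts are therefore given first, from RefSeq on GRCm38.p6, plus strand, 5′ to 3′, where the promoter table held 4 of the 8 members. Capitals in the Fabp7 sequence mark a match to TTGGC, the half-site bound by nuclear factor I proteins, searched on both strands. Fabp7 has 1 listed start, and the 250 bases before it lie at chr10:57784673-57784922. Pmp22 has 4 listed starts, and the bases before the most upstream, at chr11:63128732-63128981, and a downstream one, at chr11:63132319-63132568, are shown because its mouse gene is known to use alternative promoters, one of them mainly in myelinating Schwann cells.
Fabp7: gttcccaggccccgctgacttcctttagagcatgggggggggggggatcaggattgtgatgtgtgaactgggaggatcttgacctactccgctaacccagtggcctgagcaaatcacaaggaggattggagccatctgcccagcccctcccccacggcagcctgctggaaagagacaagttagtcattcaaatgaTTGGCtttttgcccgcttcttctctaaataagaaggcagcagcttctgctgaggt
Pmp22, upstream start: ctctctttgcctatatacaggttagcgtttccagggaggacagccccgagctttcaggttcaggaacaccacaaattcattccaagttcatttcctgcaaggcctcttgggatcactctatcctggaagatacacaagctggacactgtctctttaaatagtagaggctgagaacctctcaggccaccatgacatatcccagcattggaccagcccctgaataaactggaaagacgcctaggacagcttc
Pmp22, downstream start: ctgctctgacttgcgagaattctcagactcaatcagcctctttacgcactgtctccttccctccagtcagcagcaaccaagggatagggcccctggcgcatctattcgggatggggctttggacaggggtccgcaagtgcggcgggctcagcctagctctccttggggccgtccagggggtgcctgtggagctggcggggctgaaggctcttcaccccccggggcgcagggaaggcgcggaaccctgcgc

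The half-site in Fabp7 spans bases 55 to 51 before the start. It occurred in 41.5% of 32851 promoter windows of the same length, in none of the 4 windows of Pmp22, and it was searched only after the sequence had been read. The SOX motifs ACAAAG and AACAAT, which 16.5% and 9.42% of the windows hold on either strand, were not found in the Fabp7 window or in any of the 4 Pmp22 windows. None of these motifs overlaps another. G and C made up 54.8% of the Fabp7 window, against a median of 52.4% over all windows. In the 4 Pmp22 windows, from the most upstream on, they made up 48.8%, 61.2%, 64.8% and 73.6%. The 64.8% belongs to the downstream window shown, which is 1 of several. Which listed start belongs to which known promoter was not determined. The array gives 1 value for Pmp22, so the levels below do not say which start was used.

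Of the 8 Schwann cell and precursor genes, 2 lay above the background floor, Fabp7 and Pmp22. That is 25% of them, where 40.5% of all named genes lay above it. The other lineage markers, Sox10, Foxd3, Erbb3, Cdh19 and S100b, did not, nor did the myelin gene Mbp. The levels at this floor do not establish the label of the list, and they do not show that its other markers are absent. With the floor at the receptor median all 8 passed, but so did 9 of 10 skeletal muscle genes and 6 of 7 melanocyte genes. Passing that lower floor therefore says little about this list, and the share of all genes passing it was not computed. Fabp7 and Pmp22 are both also known from other cell types.

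**Figure D1:**
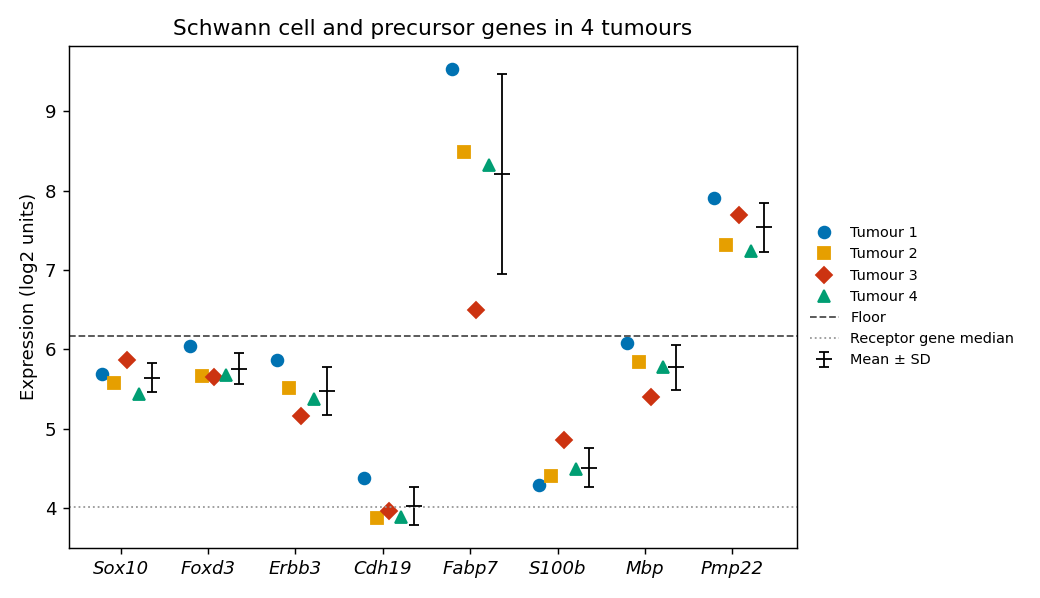
Expression of the 8 genes in each tumour (vertical axis, log2 units; coloured points, tumours 1 to 4), with the mean ± SD over the 4 tumours in black, the background floor of 6.17 dashed and the receptor gene median of 4.01 dotted. Fabp7 and Pmp22 lie above the floor in all 4 tumours, Fabp7 spreads from 6.49 to 9.54, and the other 6 genes lie below the floor in every tumour.

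Sox10, which directs the glial fate of neural crest cells and switches on Erbb3 and myelin genes, measured 5.69, 5.57, 5.87 and 5.43 log2 units in tumours 1 to 4. Its mean was 5.64 ± 0.19 (SD, n = 4), and 10.7% of receptor genes had a higher mean. It was highest in tumour 3 and lowest in tumour 4, a range of 0.44.

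Foxd3, a forkhead factor of premigratory neural crest and early precursors, measured 6.05 in tumour 1 and 5.66, 5.65 and 5.67 in tumours 2 to 4. Tumour 1 stood alone and the other 3 lay within 0.02 of each other, a gap past Dixon's critical value for an outlying sample, which 4.55% of all genes also passed. The receptor genes' 95th percentile was itself 5.91 in tumour 1, 6.14 in tumour 2, 6.37 in tumour 3 and 6.43 in tumour 4, so Foxd3 passed this limit in tumour 1 when each tumour was set against its own. Its 4-tumour mean of 5.76 ± 0.19 (SD, n = 4) did not pass the common floor.

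Erbb3, the receptor chain that binds neuregulin and signals together with ErbB2, measured 5.87, 5.52, 5.16 and 5.37 in tumours 1 to 4, with a mean of 5.48 ± 0.30 (SD, n = 4). It was highest in tumour 1 and lowest in tumour 3. Cdh19, a cadherin known as a marker of the precursor stage in rats, measured 4.38 in tumour 1 and 3.87, 3.96 and 3.89 in tumours 2 to 4. Its mean of 4.03 ± 0.24 (SD, n = 4) was close to the receptor median of 4.01, and 49.5% of receptor genes had a higher mean. Tumour 1 was the highest here as for Foxd3 and Erbb3.

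S100b, a calcium-binding protein used in pathology to stain Schwann cells, measured 4.29, 4.40, 4.85 and 4.49 in tumours 1 to 4. It averaged 4.51 ± 0.25 (SD, n = 4), and its highest value fell in tumour 3 and its lowest in tumour 1, the opposite of Erbb3. Mbp, myelin basic protein, which compacts the myelin sheath on its inner side, measured 6.08, 5.84, 5.40 and 5.77 in tumours 1 to 4. Its mean was 5.77 ± 0.28 (SD, n = 4), and in tumour 1 it passed that tumour's own receptor limit of 5.91.

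Pmp22, a membrane protein of compact myelin that is also expressed outside nerves and was first found in growth-arrested fibroblasts, measured 7.90, 7.31, 7.69 and 7.24 log2 units in tumours 1 to 4. The mean was 7.54 ± 0.31 (SD, n = 4). Tumours 1 and 3 were the higher pair and tumours 2 and 4 the lower. The range of 0.66, or 1.58-fold, was wider than that of 82.9% of the genes above the floor.

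Fabp7, a carrier of fatty acids in radial glia, immature Schwann cells and other neural cells, measured 9.54, 8.49, 6.49 and 8.32 log2 units in tumours 1 to 4. Tumour 1 was the highest, tumours 2 and 4 lay 0.17 apart in the middle, and tumour 3 was the lowest, close to that tumour's own receptor limit of 6.37. The mean was 8.21 ± 1.27 (SD, n = 4) and the range 3.05, or 8.27-fold. Fabp7 was the 1 member with a range of at least 1 log2 unit (2-fold), which 4.26% of the genes above the floor and 2.74% of all genes reached. It ranked 9 in width of range among the 8989 genes above the floor. Without tumour 3 its range was 1.22, and without tumour 1 it was 2.0.

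The other 7 members had ranges from 0.40 to 0.71 log2 units. The median range was 0.37 over all genes and 0.41 over those above the floor. Tumour 1 held the highest value in 6 of the 8 members, all but Sox10 and S100b, against 27.9% of all genes. Tumour 3 held it in the other 2, against 19.1% of all genes, and tumours 2 and 4 in 0, against 20.4% and 32.5%. Among the 6 members not above the floor, tumour 1 was highest in 4, against 15.2% of all genes not above the floor. Genes above the floor thus peaked in tumour 1 more often than the 27.9% over all genes. Fabp7 and Pmp22 belong to that class, so the 27.9% is too low a reference for them. Tumour 3 held the lowest value in 4 of the 8, Foxd3, Erbb3, Fabp7 and Mbp, against 26.2% of all genes. Tumour 4 held it in 2, against 22.9%, tumour 1 in 1, against 28.9%, and tumour 2 in 1, against 22% of all genes. Erbb3, Mbp and Fabp7 shared 1 order, with tumour 1 highest, then tumours 2, 4 and 3, which 6.86% of all genes and 12.8% of those above the floor followed. For Erbb3 and Mbp these steps lie among the values of receptor genes, 12.6% and 8.90% of which had a higher mean, and neither gene's mean passed the common floor.

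The wider glial lists differed in how many genes lay above the floor, where 40.5% of all genes did. Of 13 other myelin and myelination genes, 2 (15.4%) lay above it. These were Ugt8a, which makes the myelin lipid galactosylceramide (7.69 ± 0.29, SD, n = 4), and Cnp, a phosphodiesterase of myelin that other cells also express (6.37 ± 0.26, SD, n = 4). Neither had the Fabp7 pattern: Ugt8a was highest in tumour 4 (8.07) and Cnp in tumour 3 (6.75). Of 14 other genes of precursor, immature and non-myelinating Schwann cells, 6 (42.9%) lay above the floor, close to the share of all genes. All 6, Gfra3, L1cam, Gap43, Cdh2, Ncam1 and Mcam, are also known from neurons or other cells, so they do not mark the glial lineage by themselves. Gfra3, a receptor for the neurotrophic factor artemin, measured 10.62, 10.43, 9.73 and 10.51 in tumours 1 to 4, lowest in tumour 3 as Fabp7 was but with a range of 0.89. L1cam, an adhesion molecule of axons and Schwann cells, ran from 8.88 in tumour 2 to 9.60 in tumour 1, and Gap43, a growth cone protein, from 9.96 to 10.19.

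**Figure D2:**
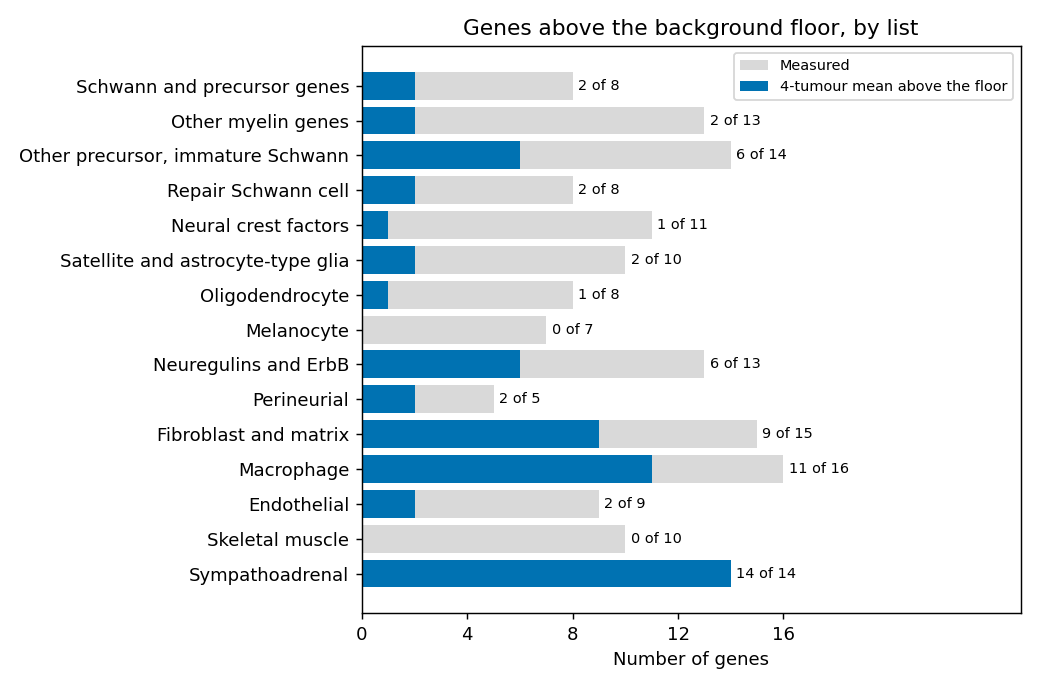
Number of genes measured (grey) and number with a 4-tumour mean above the background floor (blue) in the Schwann cell and precursor list and in lists of related and neighbouring cell types (horizontal axis, genes). The Schwann and precursor list has 2 of 8 above the floor and the melanocyte and skeletal muscle lists have 0, while the sympathoadrenal list has 14 of 14.

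Lists of related lineages also had few genes above the floor. Of 11 neural crest factors 1 lay above the floor, Tfap2b (10.80 ± 0.11, SD, n = 4), which sympathetic cells also use. Of 10 satellite and astrocyte-type glial genes 2 did. Kcnj10, a glial potassium channel, measured 7.0, 6.67, 6.35 and 6.44 in tumours 1 to 4, and Glul, glutamine synthetase, 8.38, 8.32, 7.80 and 8.14. Both were highest in tumour 1 and lowest in tumour 3, the extremes of Fabp7, with ranges of 0.66 and 0.58. Their full order was also that of Fabp7, which 12.8% of the genes above the floor followed. Oligodendrocyte genes had 1 of 8 above the floor, the tight junction gene Cldn11 (8.07 ± 0.41, SD, n = 4), and melanocyte genes had 0 of 7. Repair Schwann cell genes had 2 of 8, Jun (7.96 ± 0.24) and the chemokine Ccl2 (6.21 ± 0.33, SD, n = 4), neither restricted to glia.

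Of the 4 neuregulins, the growth factors that ErbB3 and ErbB4 bind, Nrg1 and Nrg3 lay above the floor, while none of the 4 ErbB receptors did. Nrg1, neuregulin 1, whose axonal form drives Schwann cell growth and myelination, measured 7.11, 6.21, 7.55 and 7.52 log2 units in tumours 1 to 4, lowest in tumour 2. Nrg3, neuregulin 3, a ligand of ErbB4, measured 8.45, 7.73, 8.30 and 7.28, lowest in tumour 4. Their ranges were 1.34 and 1.17, and neither was lowest in tumour 3 as Erbb3 was. The other ErbB receptors, Egfr, Erbb2 and Erbb4, measured 4.85 ± 0.14, 4.70 ± 0.09 and 4.94 ± 0.11 (SD, n = 4), all under the floor. In the neuregulin list as a whole 6 of 13 genes lay above it, among them the adaptor Shc1, highest in tumour 4 at 8.99, and Erbin, an ErbB2-binding scaffold, at 8.57 ± 0.09 (SD, n = 4).

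Relatives of Fabp7 in the family of lipid-binding proteins followed other orders across the tumours. Of 11 measured relatives 3 lay above the floor. Fabp3, the heart-type carrier, measured 9.43, 9.36, 9.55 and 9.53 in tumours 1 to 4, a range of 0.20. Fabp5, the epidermal-type carrier, was lowest in tumour 3 at 9.88 and highest in tumour 4 at 10.40. Crabp1, a retinoic acid carrier, measured 7.36, 8.08, 6.60 and 7.48, lowest in tumour 3 but highest in tumour 2, with a range of 1.48. Fabp4, the adipocyte and endothelial carrier, had a mean of 5.69 under the floor and measured 6.57, 4.14, 5.84 and 6.19. Its range of 2.44 was also wide, but it was lowest in tumour 2.

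The relatives of the members under the floor were mostly under it too, with 0 of 2 for the SoxE factors Sox8 and Sox9 and 0 of 3 for the FoxD factors. Of 8 type II cadherins related to Cdh19, 1 lay above the floor, Cdh6, with 7.73, 6.72, 6.95 and 7.0 in tumours 1 to 4, tumour 1 being the highest as for Cdh19. Of 7 S100 genes related to S100b, 4 did. Among them S100a10, the partner of annexin A2, measured 10.03, 9.36, 8.62 and 7.53 in tumours 1 to 4, and S100a6, a calcium-binding protein of proliferating cells, 9.16, 9.11, 10.17 and 10.10. S100a6 was highest in tumour 3 as S100b was, and S100a10 was not.

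Genes beside Fabp7 on chromosome 10 did not show its spread. Of the 5 nearest measured genes on each side, Serinc1 and Hsf2 before it and Gcc2 after it were above the floor. Hsf2 ran from 7.10 in tumour 3 to 7.76 in tumour 2, Serinc1 from 10.08 in tumour 3 to 10.52 in tumour 1, and Gcc2 from 6.65 to 6.72. The widest of the 10 neighbours varied 1.57-fold, against 8.27-fold for Fabp7.

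The factors known to act on Fabp7 in neural cells were partly above the floor. These were 6 of 11: the nuclear factor I genes Nfia, Nfib, Nfic and Nfix, Rbpj, the DNA-binding partner of Notch, and Pou3f2, a POU factor of neural cells. Pou3f2 measured 6.86, 6.51, 6.28 and 6.80 in tumours 1 to 4, highest in tumour 1 and lowest in tumour 3. Nfix measured 6.93 in tumour 1 and 7.74, 7.90 and 7.84 in tumours 2 to 4, lowest where Fabp7 was highest. Nfib measured 8.98, 8.92, 8.53 and 8.54, with its highest value in tumour 1 and its lowest in tumour 3, as Fabp7. The full Fabp7 order, which Nfib kept, was that of 12.8% of the genes above the floor. Such genes in general ran slightly high in tumour 1 and low in tumour 3. Nfia measured 6.26, 6.73, 6.18 and 6.19, lowest in tumour 3 and highest in tumour 2. Nfic ran from 6.59 in tumour 4 to 7.33 in tumour 3, and Rbpj from 7.21 in tumour 4 to 7.66 in tumour 2. The Notch receptors Notch1 and Notch2 and the targets Hes1 and Hes5 stayed under the floor.

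Likeness to Fabp7 was measured as the root mean square difference, over the 4 tumours, between values centred on each gene's own mean. Of 8988 other genes above the floor, 5 lay within 0.5 log2 units. Nrp2, neuropilin 2, a receptor for semaphorins and VEGF, was nearest at 0.36 and measured 8.13, 7.57, 6.06 and 7.64 in tumours 1 to 4. St6gal2, a sialyltransferase, lay at 0.36, Pgm5, a junction-associated relative of phosphoglucomutase, at 0.41, Ebf1, a transcription factor of lymphoid and neural cells, at 0.49 and Lix1 at 0.49. All 5 were lowest in tumour 3 and highest in tumour 1, which follows from their choice by this profile. The measure is not scaled, so it also favours genes with a wide range. Their ranges ran from 1.75 to 2.10, narrower than the 3.05 of Fabp7. With tumour 3 left out, 0 of these 5 remained among the 5 nearest, so the likeness rests on that tumour.

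**Figure D3:**
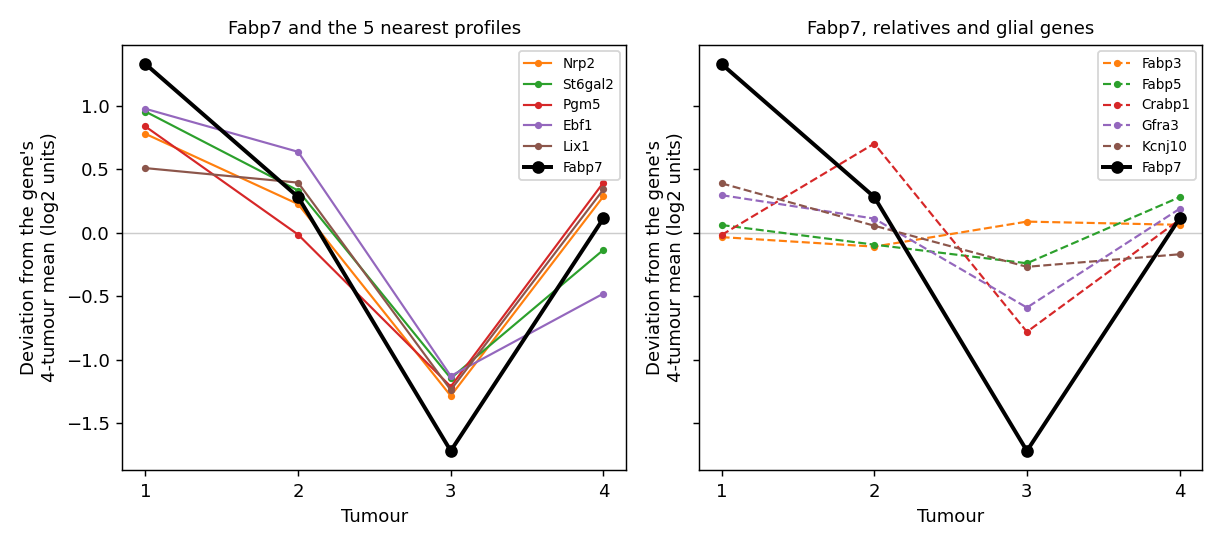
Deviation of each gene from its own 4-tumour mean (vertical axis, log2 units) in tumours 1 to 4 (horizontal axis, no order implied; lines join the values of 1 gene). Left, Fabp7 (black) with the 5 genes nearest in profile, all lowest in tumour 3. Right, Fabp7 with its relatives Fabp3, Fabp5 and Crabp1 and the glial-type genes Gfra3 and Kcnj10, whose ranges run from 0.20 to 1.48 against 3.05.

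By the same measure, applied to Pmp22 after its values were seen, the 5 nearest genes were Rap1gap2, a Rap1 GTPase-activating protein, Atf5, a stress-responsive transcription factor, Emp3, Arfgef2, an exchange factor for ARF GTPases, and Stag3, a meiotic cohesin subunit, at 0.01 to 0.04. The measure is not scaled, so these distances are small because the range of Pmp22 is narrow and cannot be set against those of Fabp7. Emp3, an epithelial membrane protein of the same family as Pmp22, measured 6.98, 6.47, 6.78 and 6.33 in tumours 1 to 4. Emp1, another of the family, measured 6.99, 6.36, 5.93 and 6.37, lowest in tumour 3 and so unlike Pmp22, while Emp2 and Lim2 were under the floor. The order of Pmp22, with tumours 1, 3, 2 and 4 from high to low, was that of 5.28% of the genes above the floor.

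Genes of other cell types moved between the same tumours. Of 15 fibroblast and matrix genes 9 lay above the floor, and their median deviations were 0.57, -0.23, 0.11 and -0.45 log2 units in tumours 1 to 4. Those of Pmp22 were 0.36, -0.22, 0.15 and -0.29, a root mean square difference of 0.13, the smallest among the 8 lists with at least 3 genes above the floor. Postn, periostin, a matrix protein, measured 9.44, 8.33, 8.88 and 7.57 in tumours 1 to 4, and Dcn, decorin, measured 8.26, 6.36, 6.55 and 6.17. Both were highest in tumour 1 and lowest in tumour 4, as Pmp22 was, and so were Col1a1, Col1a2, Fn1 and Sparc. The other genes of the list above the floor were not. Col3a1 was highest in tumour 1 at 7.12 but lowest in tumour 2 at 6.40. Thy1, a surface glycoprotein of fibroblasts and neurons, measured 6.92, 6.12, 7.95 and 6.41, highest in tumour 3 and lowest in tumour 2. Pdgfrb, a receptor for platelet-derived growth factor, was highest in tumour 3 at 6.34 and lowest in tumour 4 at 5.96. The part of fibroblasts in the Pmp22 values was not tested.

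Macrophage genes, 11 of 16 above the floor, had median deviations of 0.18, 0.15, -0.51 and 0.13 in tumours 1 to 4, while those of Fabp7 were 1.33, 0.28, -1.72 and 0.11. Of the 8 lists this was the nearest to Fabp7, but at a root mean square difference of 0.84, where the others lay at 0.93 to 1.08. The measure is not scaled, so it also favours lists with wide deviations. Satellite and astrocyte-type glial genes were not among the 8 lists, as only 2 of them lay above the floor. Csf1r, through which CSF1 sustains macrophages, measured 6.90, 6.19, 5.64 and 6.13, lowest in tumour 3. Its mean of 6.21 was just above the floor. Trem2, a myeloid lipid receptor, measured 7.12, 7.07, 6.29 and 7.24. Lyz2 measured 10.04, 10.49, 9.41 and 10.16, also lowest in tumour 3 but highest in tumour 2. Cx3cr1 was the 1 gene of the 11 above its own mean in tumour 3. It measured 7.23, 7.08, 7.36 and 7.69, lowest in tumour 2. The part of macrophages in the Fabp7 values was not tested. The 14 sympathoadrenal genes, markers of the tumour cells' lineage, had median deviations of 0.06, -0.14, -0.08 and 0.18. In tumour 3 they went both ways, 9 below and 5 above their own means, with deviations from -0.64 to 0.42. Their part in the Fabp7 values was not tested. Slc6a2, the noradrenaline transporter, was the member of that list with extremes in the same tumours, at 8.22, 7.55, 7.01 and 7.84. Genes above the floor in general also ran slightly high in tumour 1 and low in tumour 3.

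**Figure D4:**
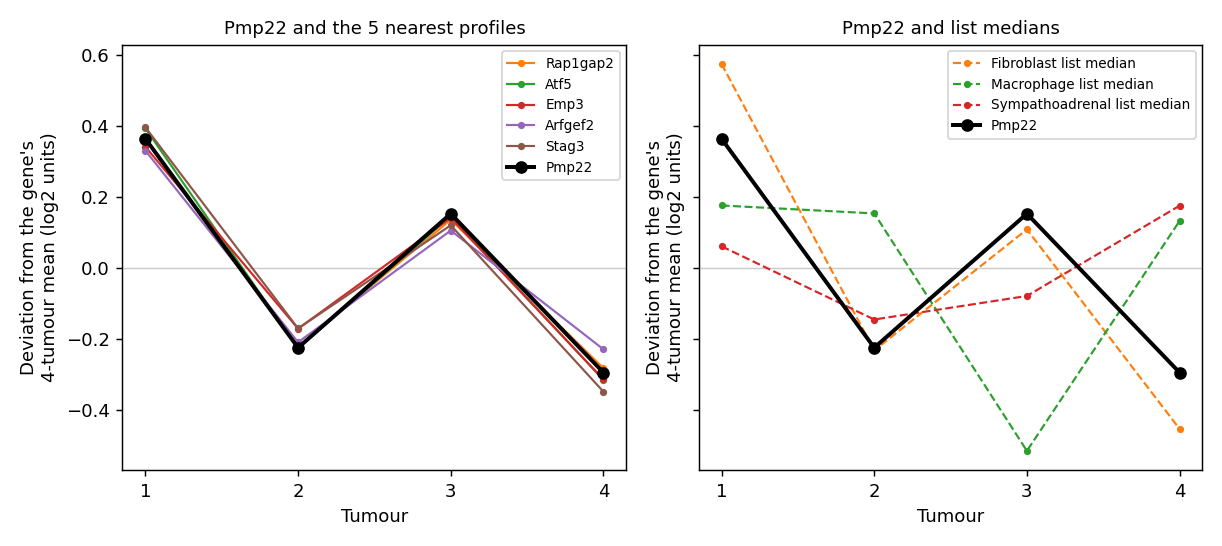
Deviation from the 4-tumour mean (vertical axis, log2 units) in tumours 1 to 4 (horizontal axis, no order implied; lines join the values of 1 gene or list). Left, Pmp22 (black) with the 5 genes nearest in profile. Right, Pmp22 with the median deviation of the fibroblast (9 genes), macrophage (11) and sympathoadrenal (14) genes above the floor, of which the fibroblast median, at 0.57, -0.23, 0.11 and -0.45, lies nearest.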

How the data were processed

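Total RNA from 4 primary tumours, extracted with Trizol and labelled with biotin, was measured on Affymetrix arrays, per the labels. The deposited table holds the authors' normalized values for 41345 probe sets, treated here as log2 values. The submitters' processing notes name RMA and Partek, without versions, and do not state the log base. The values run from 2.47 to 13.6, and scanner files were not used here. The number of arrays limits the precision. Whether each tumour is from its own animal is not stated.

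Gene names came from the platform's annotation table, where 23521 probe sets had 1 gene, 1814 had several and 16010 were not listed. Symbols were updated by Entrez identifier with RefSeq (GRCm38.p6) for 23328. The brightest probe set was kept for the 1082 genes with several. Computation used Python 3.11.15 with pandas 2.3.3 and numpy 2.4.6, and the counting of ranges and the profile search were tested on simulated data. Without a contrast no test was made and no p-value is given. The rule for named genes took all members, up to 3 genes above the floor with the widest and 1 with the narrowest range per list, and the 5 nearest to Fabp7. Not all genes under this rule are given, and others were named after their values were seen, among them Fabp4, Nfia, Nfib, the genes nearest to Pmp22 and the neighbours of Fabp7. The members and lists were chosen with earlier results of these data known. Alternatives covered the floor, the choice of probe set, normalization, centring and leaving out each tumour.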

Additional observations from a re-analysis of the deposited data

Results flagged for a closer look

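Of 100 genes examined (the members, the list genes above the floor, the genes nearest to Fabp7 and Pmp22, and the other genes given with values), 7 had 1 tumour set far from the other 3, by a gap that took more of the range than Dixon's 95% critical value for 4 samples allows. About 1 in 20 groups does so by chance, and 4.55% of all genes did here. Foxd3 was high in tumour 1, with a ratio of 0.94 (6.05 against 5.65 to 5.67), and was the 1 member among them. Lix1 was low in tumour 3, with a ratio of 0.90 (6.69 against 8.27 to 8.43). Nfix was low in tumour 1, with a ratio of 0.83 (6.93 against 7.74 to 7.90), and Nfia high in tumour 2, with a ratio of 0.85 (6.73 against 6.18 to 6.26). Elavl4, a neuronal RNA-binding protein of the sympathoadrenal list, was low in tumour 2, with a ratio of 0.89 (8.49 against 8.76 to 8.80). Xist, with a ratio of 0.99, and Uty, with a ratio of 0.91, set tumour 4 apart. Cdh19, high in tumour 1, reached 0.828 and stayed just inside the limit.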

How the results depend on the processing

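The count of 2 members above the floor held with a stricter floor (99th percentile), with the mean over probe sets, with either rescaling of the arrays, without each tumour in turn and, chosen after seeing the data, with each tumour's own floor. Each member has 1 probe set, so the mean over probe sets could move only the floor. With the floor at the receptor median all 8 passed, as did 9 of 10 skeletal muscle genes. With a threshold of 0.5 log2 units both members above the floor counted as variable (2, where 1 did at the main threshold), and 6 of all 8 members reached it. The shares of all genes at these 2 alternatives were not computed. The median range was 0.37 over all genes and 0.41 over those above the floor, so ranges near 0.5 are not rare. All 56 recomputed member means stayed within 1 SD, but only further quantile normalization could have moved them past it. Centring keeps each 4-tumour mean, averaging probe sets leaves each member as it was, and leaving out 1 of 4 tumours shifts a mean by less than 1 SD. The number of members lowest in tumour 2 was 0 after further quantile normalization, 3 after centring the arrays and 2 to 3 with another tumour left out. For tumour 4 it was 4, 1 and 2 to 5, the 5 without tumour 3. The floor does not enter these counts. With 1 tumour left out, the range ran from 1.22 (without tumour 3) to 3.05 for Fabp7, 0.36 (without tumour 1) to 0.71 for Erbb3, 0.31 (without tumour 3) to 0.68 for Mbp, 0.0222 (without tumour 1) to 0.40 for Foxd3, 0.0869 (without tumour 1) to 0.51 for Cdh19, 0.20 (without tumour 3) to 0.57 for S100b and 0.26 (without tumour 3) to 0.44 for Sox10. Of the 5 genes nearest to Fabp7, 3 remained without tumour 1, 3 without tumour 2, 0 without tumour 3 and 4 without tumour 4. Tumour 1 was highest in 5 to 7 members under every rescaling and every omission run that kept it, an alternative chosen after seeing the data. No paired analysis was possible because there is 1 group. With 4 arrays and no detection calls, signal near the floor limits what can be said of the 6 members under it.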
